A study of Mus musculus with 12 samples.

Results

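The arginine, citrulline and polyamine genes described here are 10 genes chosen by symbol: Oat, Otc, Cps1, Ass1, Arg2, Odc1, Amd1, Sat1, Azin1 and Oaz1. Every probe set carrying one of these symbols was taken, where a probe set is a group of short oligonucleotides on the array that together measure one transcript. Of the 22690 probe sets on the array, 14 carried only one of these symbols and covered 8 of the 10 genes. A level filter kept 13 of these 14, still covering all 8 genes. Ass1 was found only on a probe set shared with Gm5424, and Amd1 had no probe set under its symbol.

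The samples were full-length small intestine from 14-week-old male mice of the 129 background, hybridized 1 sample per array on 12 Affymetrix GeneChip mouse genome arrays, with 3 biological replicates in each of 4 groups. The groups were wild-type mice fed chow, wild-type mice fasted for 24 h, PPARα-null mice fed chow, and PPARα-null mice fasted for 24 h. PPARα is a nuclear receptor that fatty acids activate during fasting. The wild-type mice were 129S1/SvImJ and the PPARα-null mice, which lack the receptor in every tissue, were 129S4/SvJae, so a genotype difference and a substrain difference cannot be told apart. The study asked which intestinal genes respond to fasting and which of these responses need PPARα.

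Enterocytes of the small intestine make citrulline, which the kidney turns into arginine. Carbon enters this route as glutamate or proline and passes through ornithine, which is formed by ornithine aminotransferase (Oat), and carbamoyl phosphate synthetase (Cps1) and ornithine transcarbamylase (Otc) then complete citrulline inside the mitochondria. In the opposite direction, arginase 2 (Arg2) splits arginine into ornithine and urea, and ornithine decarboxylase (Odc1) turns ornithine into putrescine, the first polyamine. Antizyme (Oaz1) binds Odc1 and sends it to the proteasome, antizyme inhibitor (Azin1) captures antizyme and so spares Odc1, and Sat1 acetylates polyamines for breakdown or export. Polyamines are needed by dividing cells, which in the intestine lie in the crypts.

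Upstream sequences were listed for 7 of the 10 genes in the RefSeq table used, which did not list Cps1, Arg2 and Azin1. The 250 bases before the transcription start are printed for Oat and Odc1, genes with listed promoters that fell in fasted PPARα-null mice, and for Oaz1, an Odc1 regulator that was not called in any comparison. Sequences run 5′ to 3′ on the gene's strand in build GRCm38.p6, and capitals mark matches to the motifs named in the next paragraph.
Oat (chr7:132576399-132576648, minus strand): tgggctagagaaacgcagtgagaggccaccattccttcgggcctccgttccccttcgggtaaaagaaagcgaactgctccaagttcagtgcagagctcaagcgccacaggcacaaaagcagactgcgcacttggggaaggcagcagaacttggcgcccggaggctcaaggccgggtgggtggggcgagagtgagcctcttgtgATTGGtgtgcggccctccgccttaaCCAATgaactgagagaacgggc
Odc1 (chr12:17544623-17544872, plus strand): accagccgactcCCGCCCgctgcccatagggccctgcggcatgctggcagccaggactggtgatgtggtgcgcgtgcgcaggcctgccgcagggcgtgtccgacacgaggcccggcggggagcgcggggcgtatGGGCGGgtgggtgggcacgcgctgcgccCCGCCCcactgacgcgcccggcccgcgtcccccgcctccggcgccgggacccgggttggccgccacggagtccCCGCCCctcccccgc
Oaz1 (chr10:80826406-80826655, plus strand): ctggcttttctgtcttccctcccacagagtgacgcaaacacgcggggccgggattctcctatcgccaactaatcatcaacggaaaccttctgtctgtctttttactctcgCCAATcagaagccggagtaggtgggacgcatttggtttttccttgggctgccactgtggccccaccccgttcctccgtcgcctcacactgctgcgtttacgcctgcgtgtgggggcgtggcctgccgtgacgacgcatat

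In all, 7 motifs were searched for on both strands of the 250 bases. They were the PPAR/RXR direct repeat (AGGTCA and AGGTCA with 1 base between, which contains the next motif), the single receptor site AGGTCA, the E-box CACGTG, the cAMP response element TGACGTCA, the GC box GGGCGG, the TATA box TATAAA and the CCAAT box CCAAT. The Oat sequence held 2 CCAAT boxes, which began 47 bases before the start on the opposite strand and 22 bases before the start on the gene's own strand. The Odc1 sequence held 4 GC boxes and had a GC content of 80%, against a median of 52% over all promoters. The Oaz1 sequence held 1 CCAAT box, beginning 140 bases before the start. Of all 27025 promoters, 34.5% held a CCAAT box and 32.9% a GC box. The direct repeat matched none of the 7 listed promoters and 0.037% of all promoters, and the single site matched none of the 7 and 13.8% of all. A match is a run of letters and was not tested for binding.

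Levels are GCRMA intensities, a linear brightness corrected for background and comparable between arrays for 1 probe set but not between probe sets. The fasted arrays read lower as a whole: their medians were 11.05 to 11.33, against 12.65 to 12.81 on fed arrays, and the 9370 probe sets over the level had a median fasted-minus-fed difference of -0.32 on the log2 scale. Changes upon fasting are therefore given relative to this common shift, with the value as deposited where it matters. Whether feeding or a separate normalization of fed and fasted arrays moved the medians cannot be told apart. Comparisons between genotypes and the difference between the 2 genotypes' responses do not depend on this common shift, which is the same in both genotypes. Taken for each genotype, the median difference was -0.28 in wild-type and -0.33 in PPARα-null mice. This gap was not removed from the interaction, which can therefore depend on the scaling of the arrays. A gene was called if any of its probe sets had a mean over 20, a fold above 1.3 and an unadjusted p under 0.01 in limma, with p-values adjusted by the Benjamini-Hochberg method across the probe sets kept. The interaction, the wild-type response minus the PPARα-null response, was called at an adjusted p under 0.05.

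The intensity of Ppara (1449051_at) was 19.9, 34.0 and 35.9 in fed and 58.7, 48.1 and 30.8 in fasted wild-type mice, against 6.84 to 7.50 in fed and 11.0 to 13.2 in fasted PPARα-null mice. All wild-type arrays lay above all PPARα-null arrays. This matters because 1 free-text label of the 3 fasted wild-type samples calls them knockout, while their titles and strain call them wild-type. Markers of absorptive enterocytes were abundant on every array, with the summed intensity of 8 marker genes between 50050 and 56010. The summed intensity of 13 exocrine pancreas genes was 10090 to 21700 on the 3 fasted wild-type arrays and 25370 and 26600 on PPARα-null fasted replicates 1 and 3, but 177 on PPARα-null fasted replicate 2 and 175 to 1412 on the fed arrays. For the genes called in fasted PPARα-null mice or in the interaction, values without these 2 arrays are therefore given as well. The 3 fasted wild-type arrays stay in. The interaction and the difference between fasted genotypes then set 1 array at 177 against 3 at 10090 to 21700, so these 2 values are not freed of the pancreas difference.

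The clearest change among these genes was in Azin1, the antizyme inhibitor. Relative to the common shift it fell upon fasting in PPARα-null mice and was not called in wild-type mice. Azin1 had 2 probe sets, and the first described here (1450714_at) read 904, 961 and 1017 in fed wild-type mice and 869, 782 and 797 in fasted wild-type mice. In PPARα-null mice it read 1145, 1242 and 1056 when fed and 393, 428 and 374 when fasted. The 3 fasted PPARα-null arrays were the lowest of the 12 and overlapped with no other group, the next array being a fasted wild-type one at 782.

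Relative to the common shift, this probe set fell by 1.21 on the log2 scale in PPARα-null mice (SE 0.091, n = 3 per group, limma adjusted p = 4.37e-07), which is 2.31-fold. In wild-type mice the log2 change was 0.08 (adjusted p = 0.555), and as deposited it was -0.24, which was not called. The interaction was 1.29 (SE 0.13, limma adjusted p = 3.66e-05), and fasted PPARα-null mice lay 2.05-fold below fasted wild-type mice (limma adjusted p = 3.69e-06).

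The second Azin1 probe set (1422702_at) moved in the same direction but less. It read 1086, 1167 and 1250 in fed and 907, 816 and 801 in fasted wild-type mice, and 1011, 1076 and 1122 in fed and 499, 559 and 575 in fasted PPARα-null mice. Again the fasted PPARα-null arrays did not overlap with any other group. The fall in PPARα-null mice was 1.58-fold (limma adjusted p = 5.93e-05), the change in wild-type mice was -0.16 on the log2 scale (adjusted p = 0.231), and the interaction was 0.50 (SE 0.13, limma adjusted p = 0.0138). As deposited the wild-type change of this probe set was -0.47 (limma adjusted p = 0.00141) and was called, so the missing wild-type call depends on the shift. In fed mice the 2 probe sets pointed in opposite directions between genotypes, with a log2 difference (PPARα-null minus wild-type) of 0.26 (limma adjusted p = 0.295) for the first and -0.13 (adjusted p = 0.657) for the second, and neither was called.

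**Figure D1:**
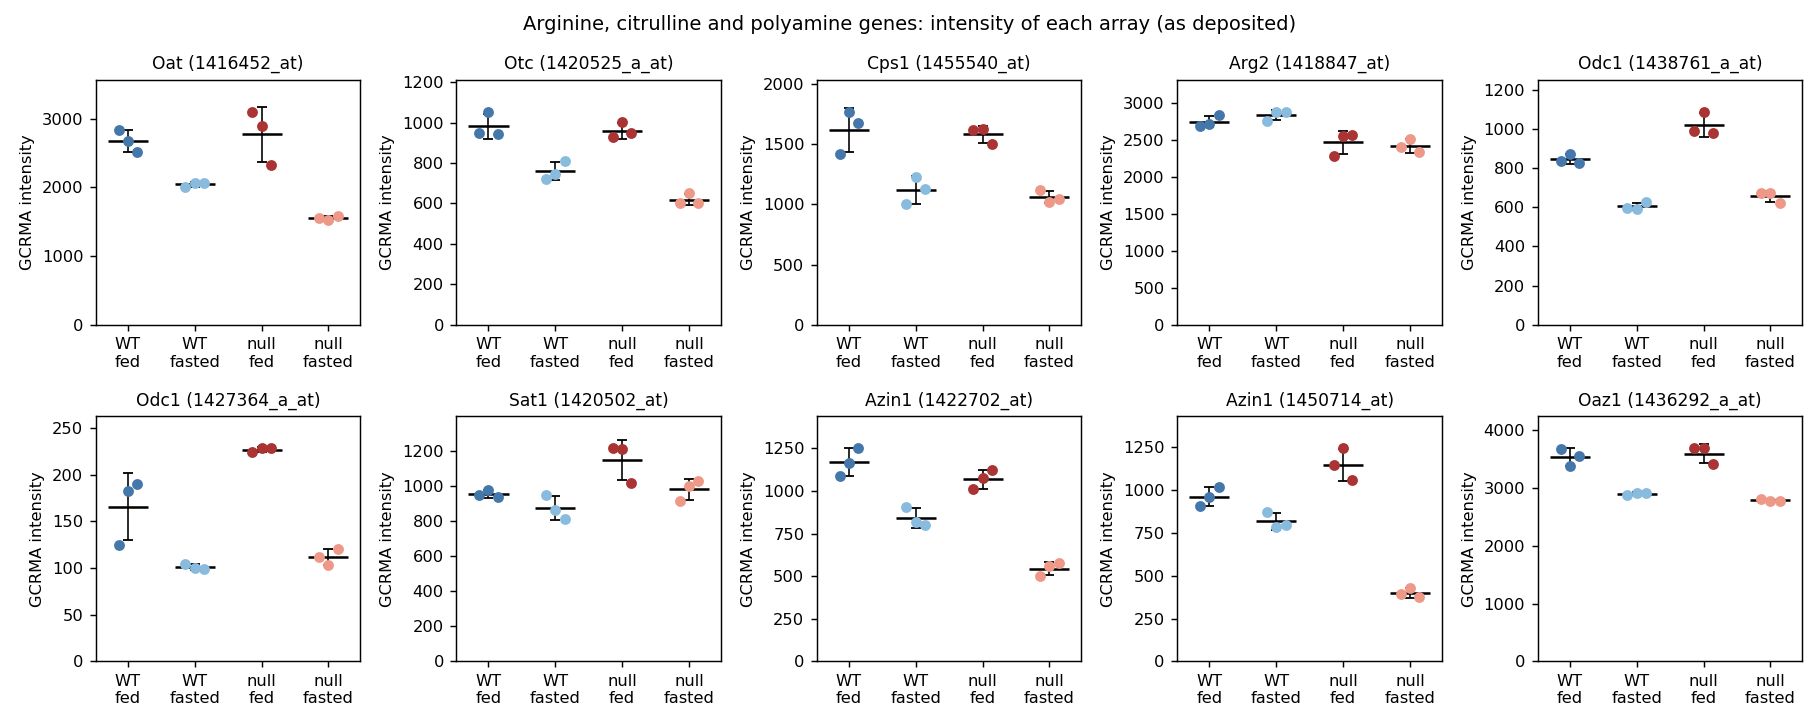
Intensity as deposited (vertical axis, linear from 0, GCRMA units) of 10 probe sets on each of the 12 arrays, in wild-type (blue) and PPARα-null (red) mice, fed or fasted for 24 h. Points are arrays, horizontal lines group means and bars ± 1 SD (n = 3). Both Azin1 probe sets show the 3 fasted PPARα-null arrays below the rest (374 to 428 for 1450714_at), whereas Arg2 stays between 2281 and 2877 in all groups.

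Azin1 was low on PPARα-null fasted replicate 2, which had no pancreas signal (428 and 559 on the 2 probe sets), as well as on replicates 1 and 3. Without replicates 1 and 3 the fasted PPARα-null group is 1 array, assumed to vary like the other groups, so these values describe that array. On the first probe set the change upon fasting was then -1.12 and the interaction 1.18, and on the second -0.63 and 0.46. The interaction here sets this array, without pancreas signal, against fasted wild-type arrays that carried it. Sums of marker intensity are as deposited, so their differences between fed and fasted mice include the common shift. The summed intensity of 8 crypt proliferation genes was 2260 to 2521 in fed and 1410 to 1819 in fasted wild-type mice. In PPARα-null mice it was 2376 to 2669 when fed and 1257 to 1392 when fasted. Relative to the shift, the median log2 change of the 8 was -0.30 in wild-type and -0.77 in PPARα-null mice. Of these 8 genes, 5 fell in PPARα-null mice, where 29.1% of all genes over the level were called lower. In wild-type mice 1 fell, where 9.95% of all genes were called lower. Mki67, a marker of dividing cells, fell by 1.04 on the log2 scale in PPARα-null mice (limma adjusted p = 7.11e-05), and its log2 change in wild-type mice was -0.30 (adjusted p = 0.151). The summed intensity of 5 lymphocyte genes was also lowest in fasted PPARα-null mice, at 187 to 240, against 417 to 445 in fasted wild-type and 596 to 785 in fed mice of both genotypes. The part of these markers in the Azin1 result was not tested. In these bulk samples fewer cells of a type and less RNA per cell cannot be told apart.

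**Figure D2:**
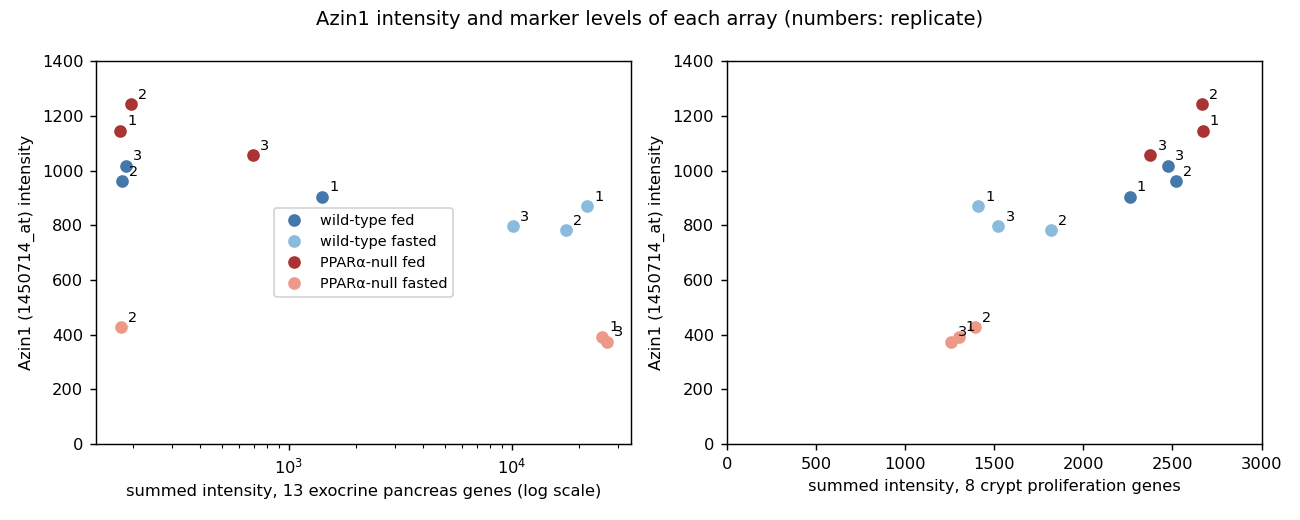
Intensity of Azin1 (1450714_at, vertical axis) on each of the 12 arrays against the summed intensity of 13 exocrine pancreas genes (left, log axis) and of 8 crypt proliferation genes (right, linear axis), with the replicate number beside each point. PPARα-null fasted replicate 2 has a pancreas sum of 177 and an Azin1 intensity of 428, beside the 374 and 393 of replicates 3 and 1.

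Oaz1, the antizyme that Azin1 captures, did not show this pattern. Its probe set (1436292_a_at) read 3674, 3381 and 3565 in fed and 2879, 2921 and 2913 in fasted wild-type mice, and 3689, 3689 and 3412 in fed and 2811, 2786 and 2774 in fasted PPARα-null mice. The fasted arrays of both genotypes lay below the fed arrays as deposited, by 0.28 and 0.37 on the log2 scale, which is close to the common shift, and the changes relative to it were 0.03 in wild-type (limma adjusted p = 0.783) and -0.05 in PPARα-null mice (adjusted p = 0.579). The 95% interval of the interaction, -0.14 to 0.30, does not reach the 1.29 of Azin1. A probe set shared by Oaz1 and Oaz1-ps (1428868_a_at) read 1290 to 1906 in wild-type and 1473 to 1982 in PPARα-null mice and was not called.

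Odc1, the rate-limiting enzyme of polyamine synthesis, fell in fasted PPARα-null mice on 1 of its 3 probe sets. That probe set (1427364_a_at) read 124, 183 and 191 in fed and 105, 99.9 and 98.6 in fasted wild-type mice, and 224, 228 and 228 in fed and 112, 103 and 120 in fasted PPARα-null mice. Wild-type fed replicate 1 lay apart from the other fed arrays, and the fasted arrays of the 2 genotypes overlapped. In PPARα-null mice the fall was 1.64-fold (limma adjusted p = 0.000661), and the log2 change in wild-type mice was -0.37 (adjusted p = 0.0604). With PPARα-null fasted replicate 2 as the only array of its group the log2 change was -0.84. The difference between the 2 responses, 0.34 on the log2 scale (SE 0.19, limma adjusted p = 0.222), did not pass.

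In fed mice this Odc1 probe set was 1.39-fold higher in PPARα-null than in wild-type mice at an unadjusted p of 0.00366 in limma, but the adjusted p was 0.175. This call was lost without wild-type fed replicate 1, where the log2 difference dropped from 0.48 to 0.28, and it was also lost without PPARα-null fed replicate 2 or 3. Without wild-type fed replicate 1 the wild-type fall upon fasting was called, at a log2 change of -0.56. The most abundant Odc1 probe set (1438761_a_at) read 834, 873 and 826 in fed and 597, 590 and 625 in fasted wild-type mice. In PPARα-null mice it read 987, 1088 and 980 when fed and 675, 670 and 622 when fasted. The fed PPARα-null arrays were the highest of the 4 groups here too, with a log2 difference from fed wild-type mice of 0.27 (limma adjusted p = 0.182), and the change upon fasting in PPARα-null mice was -0.32 (adjusted p = 0.00357), under the 1.3-fold limit. The third probe set (1437711_x_at) read 341 to 600 in wild-type and 372 to 646 in PPARα-null mice, and its log2 changes upon fasting were -0.15 and -0.31.

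Sat1, the polyamine acetyltransferase, was not called in any comparison. Its intensities were 949, 979 and 935 in fed and 947, 865 and 812 in fasted wild-type mice, and 1215, 1213 and 1020 in fed and 915, 1000 and 1029 in fasted PPARα-null mice. The fed PPARα-null arrays lay above the fed wild-type arrays without overlap, and the log2 difference was 0.26 (limma adjusted p = 0.295).

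Oat, which forms the ornithine for citrulline, was the second gene whose response differed between genotypes. Its probe set (1416452_at) read 2838, 2668 and 2517 in fed and 2007, 2063 and 2065 in fasted wild-type mice. In PPARα-null mice it read 3102, 2891 and 2319 when fed and 1553, 1529 and 1586 when fasted. The fed groups overlapped, and all 3 fasted PPARα-null arrays lay below all fasted wild-type arrays.

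Oat fell 1.42-fold in PPARα-null mice (limma adjusted p = 0.00104), and its log2 change in wild-type mice was -0.07 (adjusted p = 0.647, 95% interval -0.29 to 0.15). As deposited the wild-type change of Oat was -0.39 (limma adjusted p = 0.008) and was called. Fasted PPARα-null mice were 1.31-fold lower than fasted wild-type mice (limma adjusted p = 0.00796). The interaction was 0.44 (SE 0.14, limma adjusted p = 0.0435), close to the threshold, and the call was lost on leaving out 1 array, for 10 of the 12 arrays, and was kept without wild-type fed replicate 1 and without replicate 3 of the fed PPARα-null mice. With PPARα-null fasted replicate 2 as the only array of its group, the log2 change upon fasting in PPARα-null mice was -0.55. The interaction was then 0.46 and the difference between fasted mice -0.42 on the log2 scale. Both were as large as with all 3 arrays, and neither was called with 1 array in the group. Both set this array, without pancreas signal, against fasted wild-type arrays that carried it.

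Otc and Cps1, the enzymes that complete citrulline, were lower on fasted arrays of both genotypes as deposited, and neither was called relative to the common shift. Otc (1420525_a_at) read 947, 1054 and 943 in fed and 723, 747 and 811 in fasted wild-type mice, and 928, 1002 and 948 in fed and 601, 650 and 603 in fasted PPARα-null mice. Its log2 change was -0.32 in PPARα-null mice (limma adjusted p = 0.00531), under the 1.3-fold limit, and -0.05 in wild-type mice (adjusted p = 0.673), and the interaction was 0.27 (adjusted p = 0.117). The second Otc probe set (1436615_a_at) read 208 to 407 in wild-type and 171 to 320 in PPARα-null mice, and its log2 changes were -0.15 and -0.37. The third one (1425540_at) stayed below the level filter, with group means of 8.91 to 14.0.

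Cps1 (1455540_at) read 1419, 1771 and 1676 in fed and 1001, 1231 and 1130 in fasted wild-type mice, and 1616, 1628 and 1502 in fed and 1117, 1022 and 1048 in fasted PPARα-null mice. The genotypes overlapped in both states. Its log2 changes were -0.22 in wild-type (limma adjusted p = 0.146) and -0.26 in PPARα-null mice (adjusted p = 0.0471), and the interaction was 0.04, with a 95% interval of -0.27 to 0.36. As deposited the changes were -0.53 and -0.57, and both were called. Otc and Cps1 are abundant in liver, and the summed intensity of 5 hepatocyte genes was 148 to 215 in fasted PPARα-null mice. It was 39.0 to 71.4 in the other groups. Only 1 of the 5 genes had a mean over 20 in fasted PPARα-null mice. Relative to the shift, the median log2 change of the 5 upon fasting was 0.41 in wild-type and 0.35 in PPARα-null mice. The part of liver RNA was not tested. The probe set shared by Ass1, the cytosolic enzyme that joins citrulline and aspartate, and Gm5424 had group means of 11.97 to 15.98, all under the level of 20.

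Arg2, the mitochondrial arginase, held its intensity on the fasted arrays although the arrays as a whole read lower. The probe set 1418847_at read 2687, 2710 and 2828 in fed and 2758, 2877 and 2872 in fasted wild-type mice, and 2281, 2550 and 2559 in fed and 2407, 2514 and 2328 in fasted PPARα-null mice. Fed and fasted arrays overlapped in both genotypes, and PPARα-null arrays lay below wild-type arrays of the same state. Relative to the common shift the log2 change was 0.36 in wild-type (limma adjusted p = 0.00548) and 0.29 in PPARα-null mice (adjusted p = 0.00647), both under the 1.3-fold limit, and as deposited it was 0.05 and -0.03. The log2 difference between genotypes (PPARα-null minus wild-type) was -0.16 in fed (limma adjusted p = 0.481) and -0.23 in fasted mice (adjusted p = 0.0292), and -0.19 and -0.28 on the second Arg2 probe set (1438841_s_at), none of them called. The wild-type change crossed the limit, to at most 0.39, on leaving out replicate 3 of the fed or replicate 1 of the fasted wild-type mice.

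**Figure D3:**
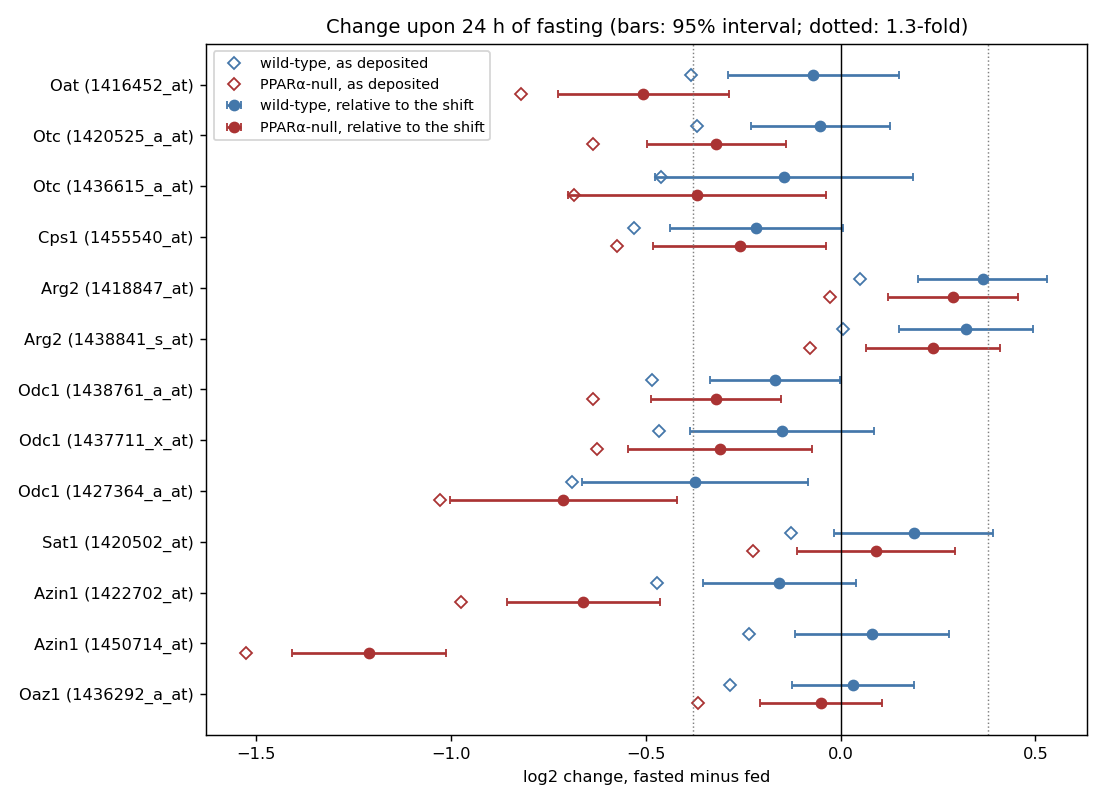
Log2 change upon 24 h of fasting (horizontal axis, fasted minus fed) of the 13 probe sets over the level, in wild-type (blue) and PPARα-null (red) mice. Filled points are relative to the common shift with 95% intervals, open diamonds are as deposited and dotted lines mark 1.3-fold. For Azin1 1450714_at the wild-type value is 0.08 and the PPARα-null value -1.21, and for Oaz1 the values are 0.03 and -0.05.

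Counted by gene, 0 of the 8 measured genes were called upon fasting in wild-type mice, where 22.8% of all genes over the level were called in either direction. At an unadjusted p under 0.05 in limma, 2 of the 8 genes would pass, with no share of all genes at this limit to set beside it. Quantile normalization of all arrays also gave 0, and the values as deposited gave 4, Oat, Cps1, Odc1 and Azin1, all lower, where 38.6% of all genes were called lower. In PPARα-null mice 3 of 8 genes fell, Oat, Odc1 and Azin1, against 29.1% of all genes, and 0 of 8 rose against 22.6%. At an unadjusted p under 0.05, 6 of the 8 passed in either direction, again without a share of all genes, so this count cannot be read as particular to these genes. As deposited 5 of 8 fell in PPARα-null mice, with Otc and Cps1 added, against 50.4% of all genes. The median log2 change of the 13 probe sets was -0.07 in wild-type and -0.32 in PPARα-null mice, beside 0.03 and -0.02 over all probe sets kept.

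Between genotypes, 1 of 8 genes was called in fed mice, Odc1, where 3.44% of all genes were called in either direction. In fasted mice 2 of 8 genes, Oat and Azin1, were lower in PPARα-null mice, against 20.3% of all genes. In the interaction 2 of 8 genes were called, Oat and Azin1, both with the wild-type response above the PPARα-null response, against 18.5% of all genes in that direction and 29.6% in either. The median interaction of the 13 probe sets was 0.16, and 13 of 13 were above 0, beside a median of 0.04 over all 9874 probe sets kept. The share of all probe sets above 0 is not given here. With each array centred on its median, Cps1 (-0.042), Arg2 (-0.0095 on 1418847_at) and Oaz1 (-0.0039) lay below 0, so the common sign depends on the scaling. The probe sets of 1 gene share its transcripts and are not independent.

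A wider list of 59 genes around these enzymes covered glutamate, proline and ornithine metabolism, other uses of arginine, polyamine enzymes, hypusine synthesis and carriers. Of these, 41 had a probe set of their own and 24 passed the level. Upon fasting 7 of the 24 rose and 0 fell in wild-type mice, where 12.9% of all genes over the level were called higher and 9.95% lower. In PPARα-null mice 7 rose and 1 fell, where 22.6% of all genes were called higher and 29.1% lower. As deposited the split was 2 up and 8 down in wild-type and 3 up and 10 down in PPARα-null mice. Of all genes, 38.6% were called lower as deposited in wild-type and 50.4% in PPARα-null mice. The rises called as deposited were Glud1 and Glul in both genotypes and Prodh in PPARα-null mice.

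Enzymes that make or use glutamate were among those that changed. Glud1, glutamate dehydrogenase, read 1273, 1133 and 1231 in fed and 1945, 1659 and 2109 in fasted wild-type mice on the probe set 1448253_at, and 1171, 1209 and 1178 in fed and 2843, 2618 and 2352 in fasted PPARα-null mice. It rose by 0.96 in wild-type (limma adjusted p = 0.000118) and by 1.45 in PPARα-null mice (adjusted p = 2.87e-07) on the log2 scale, also as deposited, and the interaction was -0.48 (limma adjusted p = 0.0288). On the second Glud1 probe set (1416209_at) the rises were 0.87 and 1.23 and the interaction, -0.36, did not pass (limma adjusted p = 0.0813).

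Glul, glutamine synthetase, read 112, 58.1 and 102 in fed and 178, 102 and 185 in fasted wild-type mice, and 85.8, 82.2 and 105 in fed and 260, 251 and 233 in fasted PPARα-null mice. The wild-type groups overlapped through replicate 2 and the PPARα-null groups did not. It rose by 1.10 in wild-type (limma adjusted p = 0.0074) and by 1.77 in PPARα-null mice (adjusted p = 6.22e-05) on the log2 scale, and the interaction, -0.67, did not pass (adjusted p = 0.184).

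Prodh, proline dehydrogenase, which starts the breakdown of proline, read 73.0, 70.9 and 62.4 in fed and 166, 64.0 and 80.8 in fasted wild-type mice. In PPARα-null mice it read 80.7, 66.3 and 100.1 when fed and 331, 338 and 295 when fasted. The fasted PPARα-null arrays were above all others. Prodh rose by 2.30 on the log2 scale in PPARα-null mice (limma adjusted p = 1.48e-05), its wild-type change of 0.79 was not called and rested on replicate 1, and the interaction was -1.51 (SE 0.38, limma adjusted p = 0.0121).

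Aldh18a1, which makes the proline and ornithine precursor from glutamate, went the opposite way. On its most abundant probe set (1437325_x_at) it read 746, 653 and 641 in fed and 677, 587 and 440 in fasted wild-type mice, and 862, 867 and 707 in fed and 357, 279 and 342 in fasted PPARα-null mice. The fasted PPARα-null arrays lay below all others. It fell by 1.003 on the log2 scale in PPARα-null mice (limma adjusted p = 0.000129), the wild-type value was 0.04 (adjusted p = 0.882), and the interaction was 1.04 (SE 0.22, limma adjusted p = 0.00455). Of the 5 Aldh18a1 probe sets, 4 were called lower upon fasting in PPARα-null mice and 2 of these passed the interaction. The fifth (1437620_x_at) read 64.7 to 85.4 in fed and 55.9 to 62.9 in fasted PPARα-null mice, with a log2 change of -0.013 (limma adjusted p = 0.94) and an interaction of 0.13 (adjusted p = 0.632).

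**Figure D4:**
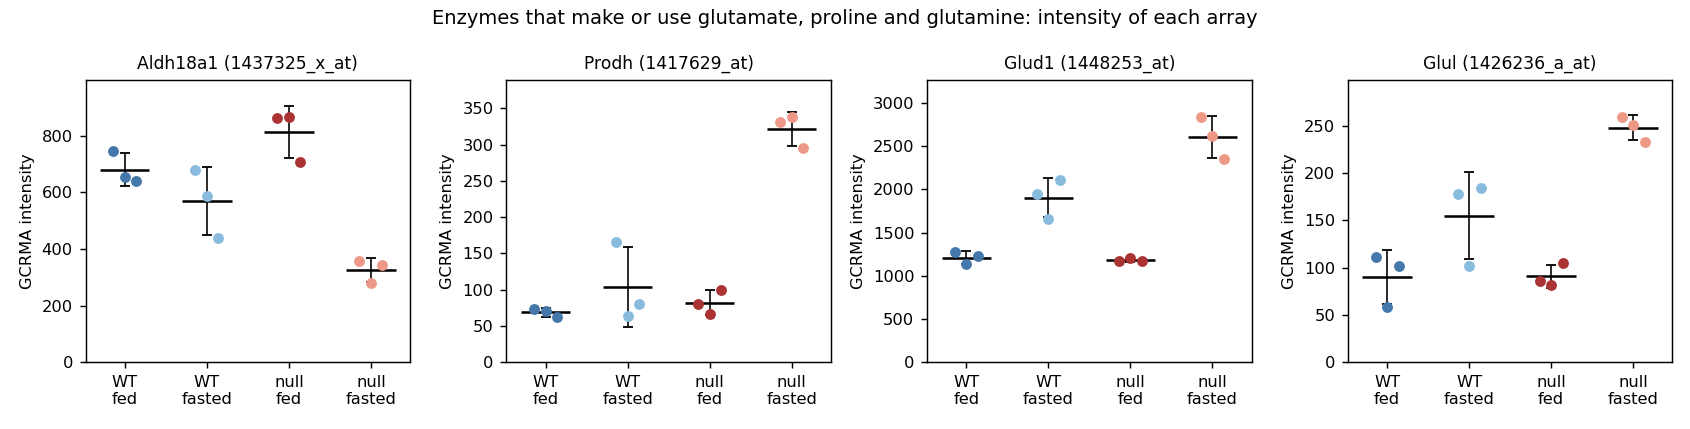
Intensity as deposited (vertical axis, linear from 0, GCRMA units) of Aldh18a1, Prodh, Glud1 and Glul on each array, with group means and ± 1 SD (n = 3). In fasted PPARα-null mice Aldh18a1 lies at 279 to 357 and Prodh at 295 to 338, outside the range of the other groups.

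The rises of the 5 other genes called in wild-type mice were not called as deposited, so these calls depend on the shift. They were Agmat, agmatinase (log2 change 0.55, limma adjusted p = 0.00188), Oaz2, a second antizyme (0.50 on 1426764_at, adjusted p = 0.0082), Nags, which makes the activator of Cps1 (0.49, adjusted p = 0.00194), Atp13a3, a polyamine carrier (0.48, adjusted p = 0.0189), and Slc7a7, a subunit of a carrier for basic amino acids (0.43, adjusted p = 0.0139). The Oaz2 probe set 1426764_at lay near the level filter, with wild-type means of 21.6 fed and 24.6 fasted. The other Oaz2 probe set (1426763_at) had means of 87.2 and 63.3 and a log2 change of -0.15 (limma adjusted p = 0.4), and as deposited it was called lower. In PPARα-null mice Got2 (0.68), Asl (0.62), Agmat (0.43) and Atp13a3 (0.39) rose besides Prodh, Glul and Glud1, Got2 on 1 of its 2 probe sets.

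Between genotypes, 1 of the 24 listed genes was called in fed mice, Dohh, an enzyme of hypusine synthesis, at a log2 difference of 0.44 with a limma adjusted p of 0.205, beside 3.44% of all genes. In fasted mice 4 of 23 genes were higher in PPARα-null mice, Prodh (1.75), Atp13a3 (0.61 on the probe set 1442145_at), Asl (0.49) and Glud1 (0.45), where 17.1% of all genes were higher. The other Atp13a3 probe set (1434513_at), on which the rises upon fasting were called, had means of 274.1 and 274.4 in fasted wild-type and PPARα-null mice. Lower in PPARα-null mice were 2 genes, Aldh18a1 (-0.79) and Slc25a13 (-0.49), a mitochondrial aspartate and glutamate carrier, where 20.3% of all genes were lower. In the interaction 5 of the 24 were called, beside 29.6% of all genes. Besides Aldh18a1, Prodh and Glud1 these were Slc7a9, a cystine and basic amino acid carrier (0.38, limma adjusted p = 0.036), and Atp13a2, a lysosomal polyamine exporter with intensities near the level filter (0.50, adjusted p = 0.0211).

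Without PPARα-null fasted replicates 1 and 3, with 1 array left in that group, the changes of Aldh18a1 (-1.24 on 1437325_x_at), Prodh (2.36), Glud1 (1.44 on 1448253_at), Glul (1.78) and Asl (0.69) in PPARα-null mice were still called. Those of Got2 (0.63), Agmat (0.43) and Atp13a3 (0.34) were not. The comparisons that follow set this array, without pancreas signal, against fasted wild-type arrays that carried it. Between fasted genotypes Slc25a13 (-0.44) and Atp13a3 (0.55) were no longer called. In the interaction Aldh18a1 (1.26) was still called, and Prodh (-1.59), Glud1 (-0.50), Slc7a9 (0.39) and Atp13a2 (0.57) were not.

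Among the abundant listed genes that were not called in any comparison relative to the shift were Eif5a, the protein that carries hypusine, at 2471 to 4102, and the mitochondrial ornithine carrier Slc25a15, at 1078 to 1822. The log2 interaction was -0.13 for Eif5a (limma adjusted p = 0.525). For Slc25a15 it was 0.33 on 1420967_at (limma adjusted p = 0.0991), the probe set with the range given above. The other Slc25a15 probe set (1420966_at) went the opposite way, with the larger fall in wild-type mice. As deposited its means were 659 fed and 476 fasted in wild-type mice, and 493 and 428 in PPARα-null mice. Its fed PPARα-null arrays spread from 382 to 565. Slc3a2 and Slc3a1, subunits of amino acid carriers, had log2 changes of 0.15 and 0.06 in wild-type and of 0.24 and -0.21 in PPARα-null mice, none of them called. As deposited, Eif5a and Slc25a15 were called lower upon fasting in both genotypes and Slc3a1 in PPARα-null mice.

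**Figure D5:**
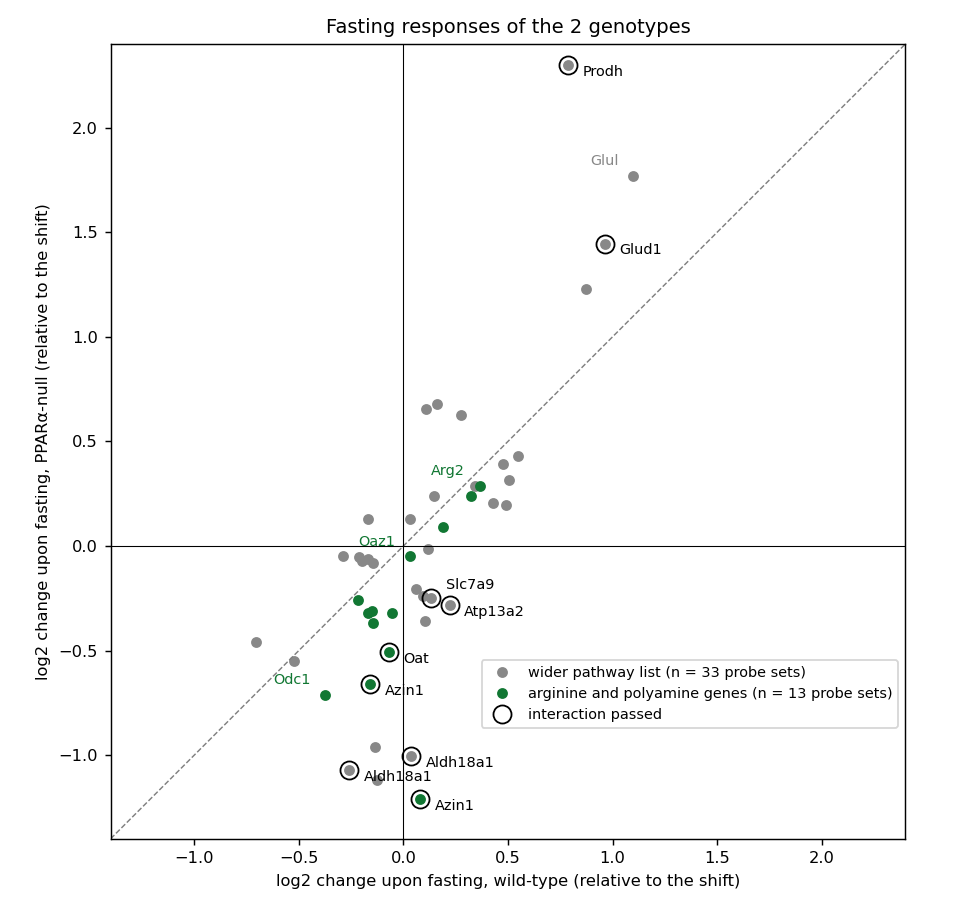
Log2 change upon fasting relative to the common shift in wild-type (horizontal axis) and PPARα-null mice (vertical axis), for the 13 probe sets of the arginine and polyamine genes (green) and 33 probe sets of the wider list (grey). Rings mark probe sets called in the interaction and the dashed line marks equal responses. Azin1, Oat and Aldh18a1 lie below the line and Prodh (0.79 against 2.30) and Glud1 above it.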

How the data were processed

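RNA of full-length small intestine was hybridized on Affymetrix GeneChip mouse genome arrays, 12 in all. The authors estimated each probe set's expression with GCRMA (version 2.20 per the submitters' processing notes), and the deposited values are linear intensities. Fed arrays carry fewer decimals than fasted arrays. Each sample's group was taken from its title.

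Log2 of the deposited intensity was fitted with limma 3.58.1 in R 4.3.3, with 1 mean per group over all 12 arrays and moderated variances. Probe sets were kept where the mean exceeded 20: for the fasting comparisons in fed wild-type mice, for the genotype comparisons in either group compared, and for the interaction in any group. Of 22690 probe sets, 20393 had 1 gene symbol in the platform annotation, 691 several and 1606 none. A gene counted once if any of its own probe sets was called. Fasting changes were taken relative to the median difference of -0.32 (log2) over 9370 probe sets. Marker lists were summed over the most abundant probe set of each gene. The fit was tested on simulated data. The number of arrays limits the precision.

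The 10 genes, the wider list and the marker lists were chosen with earlier results of these data known. All probe sets of the 10 genes are named, and of the wider list each gene called in any comparison plus 4 of the abundant ones not called.

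Same-numbered replicates were not treated as pairs: their deviations from the group means correlated between -0.15 and 0.22 over 12 pairs, with 3 above 0.1. Alternatives covered the filter, the threshold, the scaling, the variance model, the probe sets, pancreas signal as a covariate and each array left out.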

Additional observations from a re-analysis of the deposited data

Results flagged for a closer look

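The response to fasting differed between the genotypes, by limma's interaction term at an adjusted p under 0.05, for 9 probe sets of 7 genes. These were 2 of the 8 measured genes and 5 of the 24 of the wider list. Of all genes over the level, 29.6% were called in the interaction. Values are the wild-type change minus the PPARα-null change on the log2 scale, with 3 arrays per group.

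Azin1, the antizyme inhibitor, had 1.29 on the probe set 1450714_at (limma adjusted p = 3.66e-05) and 0.50 on 1422702_at (adjusted p = 0.0138). Oat had 0.44 (adjusted p = 0.0435), the value nearest to the threshold. Aldh18a1 had 1.04 on 1437325_x_at (adjusted p = 0.00455) and 0.81 on 1435855_x_at (adjusted p = 0.0332), and its other 3 probe sets, at 0.82, 0.99 and 0.13, did not pass (adjusted p = 0.0664, 0.067 and 0.632). Prodh had -1.51 (adjusted p = 0.0121), with wild-type fasted replicate 1 at 166 and the other 2 fasted wild-type arrays at 64.0 and 80.8. Glud1 had -0.48 on 1448253_at (adjusted p = 0.0288). Slc7a9 had 0.38 (adjusted p = 0.036), and Atp13a2 had 0.50 on 1428340_s_at (adjusted p = 0.0211), at intensities of 15.3 to 27.4. The substrain of the mice changes with the genotype and cannot be told apart from it.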

How the results depend on the processing

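The number of genes called among the 8 measured moved as follows. Upon fasting in wild-type mice it was 0, and 1 with array weights, with each array centred on its median or with a shift for each genotype (Odc1 each time), 1 with pancreas signal as a covariate (Arg2), 4 as deposited and 0 to 1 with 1 array left out. In PPARα-null mice it was 3, 5 as deposited and 3 with any 1 array left out. In fed mice the genotype call of Odc1 was 1, and 0 with only the groups compared in the fit, with an adjusted p threshold or with 1 probe set per gene, and 0 to 1 with 1 array left out. In fasted mice it was 2, and 1 with centred arrays or without PPARα-null fasted replicates 1 and 3 (an alternative chosen after seeing the data, which leaves 1 array in that group, assumed to vary like the others), with 2 whenever 1 array was left out. The interaction had 2 genes, and 1 (Azin1) with no level filter, quantile normalization, centred arrays, the pancreas covariate or without those 2 arrays, and 1 to 2 with 1 array left out. Of the wider list 7 genes were called in wild-type mice, 4 at a mean over 100 and 6 to 10 with 1 array left out. The fit with the replicate number as a block gave 0, 3, 1, 2 and 2 genes in the 5 comparisons, the same counts, and 9 of the wider list in wild-type mice.

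Over single probe sets of the 8 genes, 260 values called kept their call and 23 lost it, and of values not called 1346 kept their side, 18 passed and 30 changed sign. No called value changed sign. Sign changes as deposited were, in wild-type mice, Sat1 -0.13, Azin1 (1450714_at) -0.24 and Oaz1 -0.28, and in PPARα-null mice Arg2 -0.026 and -0.078 and Sat1 -0.22. With centred arrays they were Oaz1 in PPARα-null mice 0.013, Oat and Oaz1 between fed genotypes -0.0031 and -0.022, and in the interaction Cps1 -0.042, Arg2 (1418847_at) -0.0095 and Oaz1 -0.0039. Oaz1 in wild-type mice was -0.057 with quantile normalization and -0.00050 with a shift for each genotype, Otc (1420525_a_at) in wild-type mice was 0.054 with the pancreas covariate, and Odc1 (1437711_x_at) between fasted genotypes was 0.031 without PPARα-null fasted replicates 1 and 3. With 1 array left out, values crossed 0 in these ranges: in wild-type mice Otc, -0.10 to 0.0020 (1420525_a_at) and -0.27 to 0.041 (1436615_a_at); between fed genotypes Oat -0.045 to 0.16, Otc -0.063 to 0.021 and -0.22 to 0.088, Cps1 -0.12 to 0.036 and Oaz1 -0.0099 to 0.060; between fasted genotypes Odc1 (1437711_x_at) -0.17 to 0.0035; and in the interaction Cps1 -0.051 to 0.12. The cause of these moves was not tested.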
